A study of Mus musculus with 159 samples.

Results

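The ADAMTS family was described from 5 genes, *Adamts1*, *Adamts2*, *Adamts9*, *Adamts10* and *Adamtsl2*. They were chosen by name, as every ADAMTS protease or ADAMTS-like gene among the 607 genes of the deposited table. No value entered that rule, which was set with earlier results of these data known. A further 24 genes, other ADAMTS and ADAMTS-like genes and 5 membrane-bound ADAM proteases, were looked for by symbol, and 0 of them were among the genes analysed here. Per the study's text, its analysis used a subset of stellate cell genes, taken from a separate single-cell dataset as genes expressed in over 30% of stellate cells and under 15% of other cells. Whether the 607 genes are that subset is not stated, and they also include the macrophage gene *Marco*. The part of such a selection in the differences between segment types was not tested.

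ADAMTS proteases are secreted metalloproteases that act on the extracellular matrix. *Adamts1* and *Adamts9* encode proteases that cleave proteoglycans such as versican, *Adamts2* encodes the proteinase that removes the amino-terminal propeptide of fibrillar procollagens, *Adamts10* encodes a protease that associates with fibrillin microfibrils, and *Adamtsl2* encodes a relative without a protease domain that binds fibrillin and latent TGF-β binding proteins. In the liver, hepatic stellate cells produce most of the fibrillar collagen that accumulates in fibrosis.

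The data came from GeoMx Digital Spatial Profiling of formalin-fixed sections of 4 C57BL/6 mouse livers, in which RNA probes carry barcodes that are released by light from 1 chosen area at a time and counted by sequencing. The mice were 8 weeks old at the start and, per the study's methods, received carbon tetrachloride (CCl4), a hepatotoxin that causes fibrosis, for 6 weeks. Per the methods, 2 mice also received MARCO+ bone marrow-derived macrophages in weeks 3 and 5 and 2 received saline, while the labels call livers 1 and 3 treated CCl4 and livers 2 and 4 control. No source used here ties a liver to the transfer, so the pairs are called by their labels and are not assigned to the transfer or to saline. Regions of interest (ROIs) were picked by hand as MarcoHi or MarcoLo areas by the MARCO signal, and each was split by immunofluorescence into 4 segment types. Des+ segments carry the stellate cell marker DESMIN, Marco+IBA+ and Marco-IBA+ segments carry the macrophage marker IBA1 with or without MARCO, and Else segments carry none of the 3. The table holds 41 Des+, 45 Marco+IBA+, 24 Marco-IBA+ and 49 Else segments, 159 in all.

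The summed value of 9 stellate cell genes (*Des*, *Lrat*, *Reln*, *Rgs5*, *Pdgfrb*, *Ecm1*, *Colec11*, *Hgf* and *Dcn*) had a median of 487 in Des+, 179 in Marco+IBA+, 226 in Marco-IBA+ and 92.5 in Else segments. Such sums include the lowest possible value of each segment, described below, and its part in the order of types was not tested. *Marco*, the 1 macrophage gene of 10 listed that the table holds, had a median of 308 in Marco+IBA+ segments against 10.8 to 15.3 in the other types. Single segments overlapped, with a lowest value of 48.4 in Marco+IBA+ and highest values of 69.5 in Des+, 482 in Marco-IBA+ and 59.7 in Else. With no other macrophage gene in the list, Marco-IBA+ segments could not be checked against a macrophage marker. None of the listed hepatocyte, endothelial or cholangiocyte genes was in the table. The smooth muscle genes *Tagln* and *Myl9* also had their highest summed median in Des+ segments, at 34.8 against 15.6 in Else, and the part of such cells in the values below was not tested.

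By RefSeq annotation of GRCm38.p6, *Adamts1* lies on chromosome 16 from 85793827 to 85803113 and spans 9.3 kb. *Adamts9* lies on chromosome 6 from 92772699 to 92944450 and spans 171.8 kb. *Adamts2* lies on chromosome 11 from 50602085 to 50807573 and spans 205.5 kb. *Adamts10* lies on chromosome 17 from 33523646 to 33553782 and spans 30.1 kb. *Adamtsl2* lies on chromosome 2 from 27079336 to 27108981 and spans 29.6 kb. The 5 genes thus sit on 5 chromosomes and share no neighbourhood. The position of each probe within its gene was not given in the sources used here.

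How little was counted sets the reading of all values below. The deposited values are counts scaled so that the 75th percentile of every segment is 26.074, here called the Q3 value, and every value was a whole multiple of the worth of 1 count in its segment. Totals over the 607 genes ranged from 1448 to 16715 counts in Des+, 3106 to 27341 in Marco+IBA+, 1065 to 4457 in Marco-IBA+ and 75571 to 448875 in Else segments. One count was worth a median Q3 value of 3.72 in Des+ and 8.69 in Marco-IBA+ segments, and no recovered count was below 1, so a gene at 1 count cannot be told from an undetected one. This lowest possible value is called the floor of a segment.

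All 5 genes were near that floor outside Else segments. In Des+ segments the median recovered count was 3 for *Adamts1*, *Adamts2* and *Adamtsl2*, 2 for *Adamts9* and 4 for *Adamts10*. The share of the 41 Des+ segments with 1 count ranged from 17.1% for *Adamts1* to 36.6% for *Adamts9*. In Marco+IBA+ segments, where a count was worth less, the median was 4 counts for the 4 proteases and 2 for *Adamtsl2*, with 13.3% to 26.7% of segments at 1 count. In Marco-IBA+ segments the median was 1 count for each of the 5 genes, and 58.3% (*Adamts10*) to 87.5% (*Adamtsl2*) of the 24 segments were at 1 count. Most Marco-IBA+ values are thus upper bounds set by the depth of the segment. In Else segments median counts were 70 to 92 and no member was at 1 count, but the values were low in the table. The median percentile rank among the 607 genes was 2.80 for *Adamtsl2* and 18.1 for *Adamts1*, the ends of the range, and the median value of a member was 1.5 to 1.94 times that of the lowest gene of the same segment. Probes were not calibrated against each other, and how much of these Else values is unspecific binding was not tested.

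**Figure D1:**
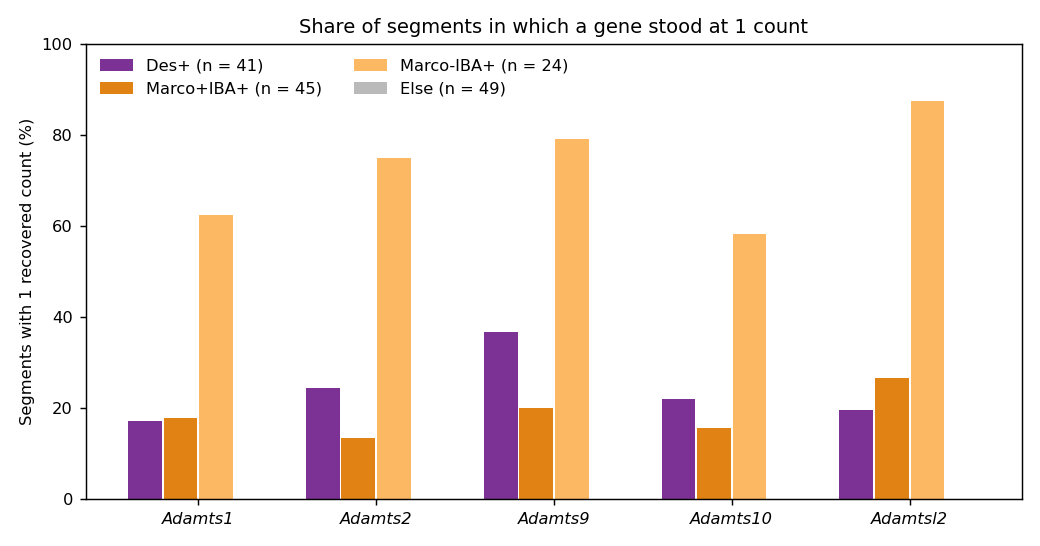
Bars give the percentage of segments of each type in which a gene had 1 recovered count, the lowest count found (41 Des+, 45 Marco+IBA+, 24 Marco-IBA+ and 49 Else segments). The Marco-IBA+ bars reach from 58.3% to 87.5%, the Des+ bars from 17.1% to 36.6%, and the Else bars are at 0.

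All 5 members were higher in Des+ than in Else segments. For each liver, values were averaged over the segments within each ROI class and then over both classes, so that n = 4 livers. Log2 values after adding 1 were compared by limma with the liver as a block, and p was adjusted by Benjamini-Hochberg over all 607 genes. The 5 of 5 members called, each higher in Des+, stand beside 37.2% of all genes called higher and 64.9% called in either direction. The median log2 difference was 1.02 over the members and 0.06 over all genes. After re-centring of segments on their median gene, 5 of 5 members were called higher, while the split of all called genes moved from 226 higher of 394 to 150 higher of 410 and the median over all genes to -0.25. In all segments, fewer cells of a type and less RNA per cell cannot be told apart.

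*Adamts1*, which encodes a versican-cleaving protease first known as induced by inflammation, had mean Q3 values of 14.9, 13.7, 12.4 and 7.55 in the Des+ segments of livers 1 to 4. Its Else values were 6.77, 5.80, 7.04 and 6.12. Liver 4 was the lowest of the Des+ values but stayed above the 4 Else values, so the 2 types did not overlap. The log2 difference was 0.79 ± 0.18 (SE, adjusted p = 0.000479), and within livers it ranged from 0.26 in liver 4 to 1.11 in liver 2. The median worth of 1 count in Des+ segments was 4.78, 4.35, 3.72 and 2.61 in livers 1 to 4. Its part in the order of livers, here and for the other members, was not tested.

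*Adamts9* encodes another versican-cleaving protease. Its Des+ values were 8.62, 11.5, 12.2 and 6.98 and its Else values 5.04, 4.66, 6.54 and 4.22. Livers 2 and 3 were the high livers in Des+, and liver 3 was also the high liver in Else, again without overlap of the types. The log2 difference was 0.81 ± 0.15 (SE, adjusted p = 5.66e-05).

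*Adamts2*, the procollagen amino-propeptidase gene, had Des+ values of 12.8, 11, 13.6 and 10.7 and Else values of 5.51, 5.47, 5.50 and 5.03. The livers lay close together within each type and far apart between types. The log2 difference was 1.02 ± 0.17 (SE, adjusted p = 2.1e-05), with 0.89 to 1.17 in single livers.

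The genes of microfibril-associated products followed the same order. *Adamts10* had Des+ values of 17.2, 16.6, 10.1 and 13.9, and its Else values lay between 5.73 and 6.76. Liver 3, the lowest in Des+ and the highest in Else, gave the smallest difference of the 4 livers, 0.51, against 1.15 to 1.27 in the other livers. The log2 difference by limma was 1.05 ± 0.20 (SE, adjusted p = 7.57e-05).

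*Adamtsl2* had Des+ values of 20.9, 11.7, 13.9 and 11.9 and Else values of 5.12, 4.17, 5.37 and 4.6. Liver 1 stood above the other 3 livers in Des+, and each liver showed a difference of at least 1.20 on the log2 scale. The log2 difference was 1.39 ± 0.19 (SE, adjusted p = 1.16e-06), a ratio of 2.63 on the scale of value plus 1. Among the 607 genes it ranked 52nd from the highest difference, and the other members ranked 91st to 128th. Whether *Adamtsl2* differed from the other members was not tested.

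**Figure D2:**
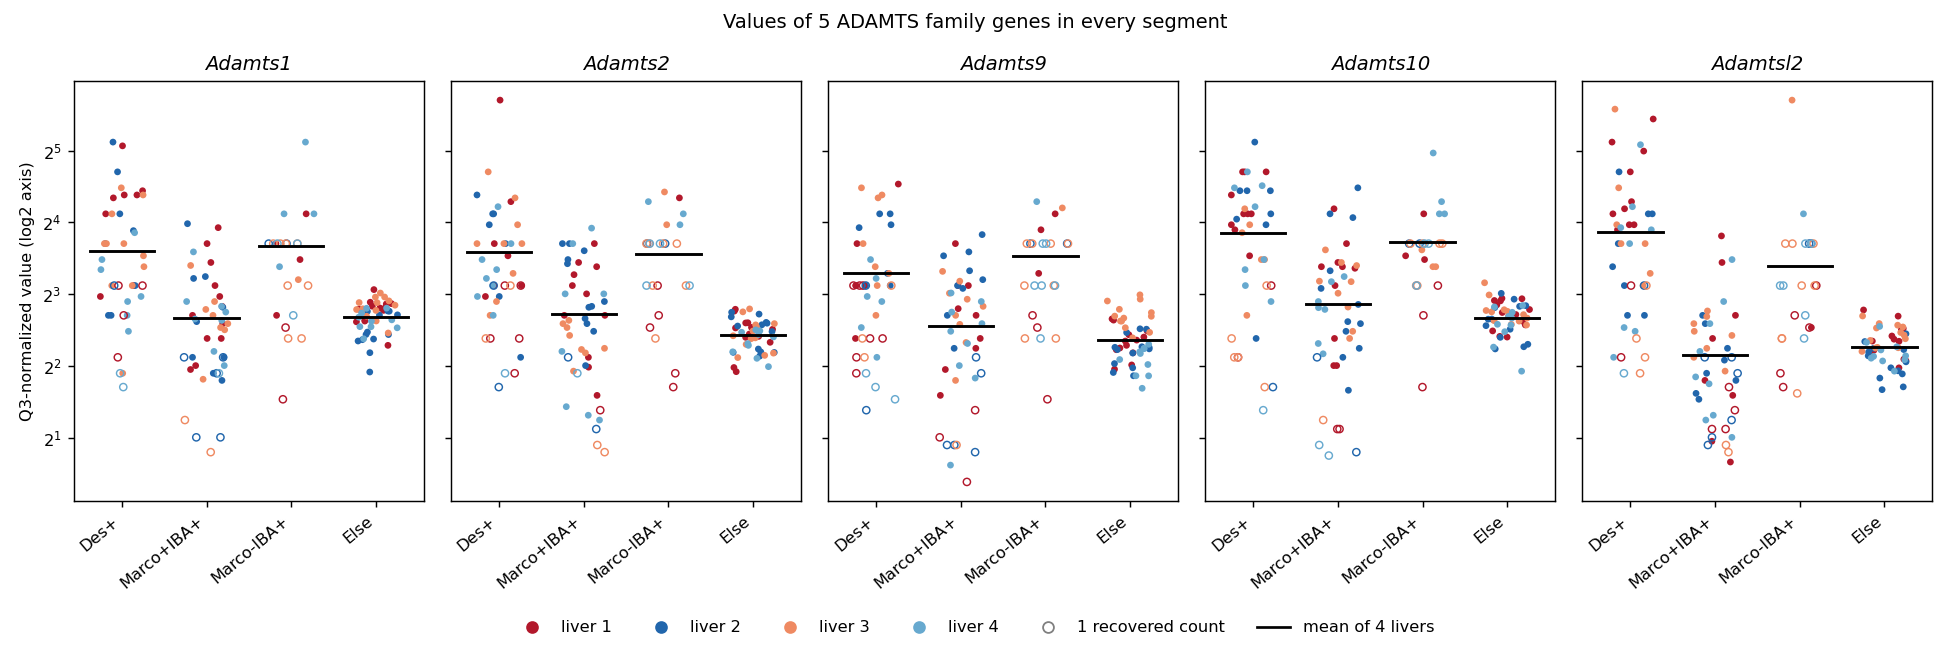
Each point is the Q3 value of 1 segment on a log2 axis, coloured by liver, with open circles for segments in which the gene had 1 recovered count and a black line at the mean of the 4 liver means. The Des+ lines lie above the Else and Marco+IBA+ lines for each of the 5 genes, and the Marco-IBA+ values line up at the floors of the segments.

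The same direction was seen inside single ROIs, where Des+ and Else segments come from the same spot. In the 41 ROIs with both, the Des+ value was higher in 35 for *Adamts1*, 34 for *Adamts2*, 32 for *Adamts9*, 32 for *Adamts10* and 37 for *Adamtsl2*. The median over all 607 genes was 48.8% of ROIs, against 78.0% to 90.2% for the members. By liver, *Adamtsl2* was higher in 12 of 12, 9 of 9, 8 of 11 and 8 of 9 ROIs. *Adamts10* was higher in 11 of 12, 7 of 9, 6 of 11 and 8 of 9, with the lowest share in liver 3. The floor alone can place a Des+ value above an Else value. For *Adamts9*, 8 of the 32 higher Des+ values were themselves at 1 count, against 2 to 5 for the other members.

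The size of the difference depended on how the floor was treated. With every value raised to the highest floor of all 4 types, 3 of 5 members were called, beside 158 of 607 genes called higher, and *Adamts1* (0.23, adjusted p = 0.0578) and *Adamts9* (0.10, adjusted p = 0.188) were not. With the highest floor of Des+ and Else only, the differences were 0.31 (*Adamts9*) to 0.75 (*Adamtsl2*), with 5 of 5 called (adjusted p = 0.000441 to 0.0243) beside 210 genes called higher. With 1 count taken off every recovered count, the differences were 0.29 for *Adamts1*, 0.52 for *Adamts2*, 0.13 for *Adamts9*, 0.62 for *Adamts10* and 0.99 for *Adamtsl2*, and the median over all genes moved as well, to -0.44. In that setting *Adamtsl2* alone was called when all 4 types were fitted together (adjusted p = 0.0383), beside 60 of 607 genes called higher. When Des+ and Else were fitted alone, *Adamts2*, *Adamts10* and *Adamtsl2* were called (adjusted p = 0.00808, 0.0127 and 0.000382), beside 121 genes called higher. Fitted to summed recovered counts, edgeR called 5 of 5, with log2 differences of 0.79 to 1.51, beside 237 genes called higher and 465 called in either direction. In MarcoLo ROIs alone the *Adamts1* difference was 0.45 and was not called (adjusted p = 0.101).

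All 5 members were also higher in Des+ than in Marco+IBA+ segments, which hold more counts than Des+ and a lower floor. The 5 of 5 called stand beside 34.4% of all genes called higher and 52.7% in either direction. Mean Marco+IBA+ values for livers 1 to 4 were 7.86, 5.65, 5.34 and 6.59 for *Adamts1*, and the highest of them overlapped the lowest Des+ liver, although Des+ was higher within each liver. Its log2 difference was 0.81 ± 0.18 (SE, adjusted p = 0.000479). For *Adamts2* the Marco+IBA+ values were 7.07, 7.96, 4.27 and 7.06, and the difference was 0.80 ± 0.17 (adjusted p = 0.000463). Liver 3, the lowest in Marco+IBA+, gave a difference of 1.47, and the other livers gave 0.42 to 0.77. The median worth of 1 count in Marco+IBA+ segments was 0.88 in liver 3 and 1.19 to 1.93 in the other livers. Its part in this was not tested.

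*Adamts9* showed the smallest of the 5 differences, 0.63 ± 0.15 (SE, adjusted p = 0.00102). It was higher in Des+ in 24 of the 37 ROIs that held both types, and it was not called with the floor raised to the highest of the 2 types (0.26, adjusted p = 0.0656). *Adamts10* was higher by 0.89 ± 0.20 (SE, adjusted p = 0.00056), with Marco+IBA+ values from 5.0 to 8.58. *Adamtsl2* had Marco+IBA+ values of 4.73, 3.75, 4.51 and 4.85, all below its lowest Des+ liver. Its difference was 1.48 ± 0.19 (SE, adjusted p = 5.97e-07), with 1.14 to 1.93 in single livers and a higher Des+ value in 34 of 37 ROIs. It was called in each of 24 alternatives run for this comparison and in each of 24 run against Else. With 1 count subtracted in the fit of all 4 types, *Adamtsl2* was the 1 member called against Marco+IBA+ (1.64, adjusted p = 0.00459). This stood beside 51 of 607 genes called higher, and the adjusted p of the others was 0.282 to 0.605. When Des+ and Marco+IBA+ were fitted alone in that setting, limma called 4 of 5 (adjusted p = 7.4e-05 to 0.0215), beside 142 genes called higher. *Adamts9* was not called there (0.35, adjusted p = 0.12). With the highest floor of all 4 types 3 of 5 were called, beside 139 genes called higher, and *Adamts1* (0.22, adjusted p = 0.0817) and *Adamts9* (0.10, adjusted p = 0.222) were not.

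**Figure D3:**
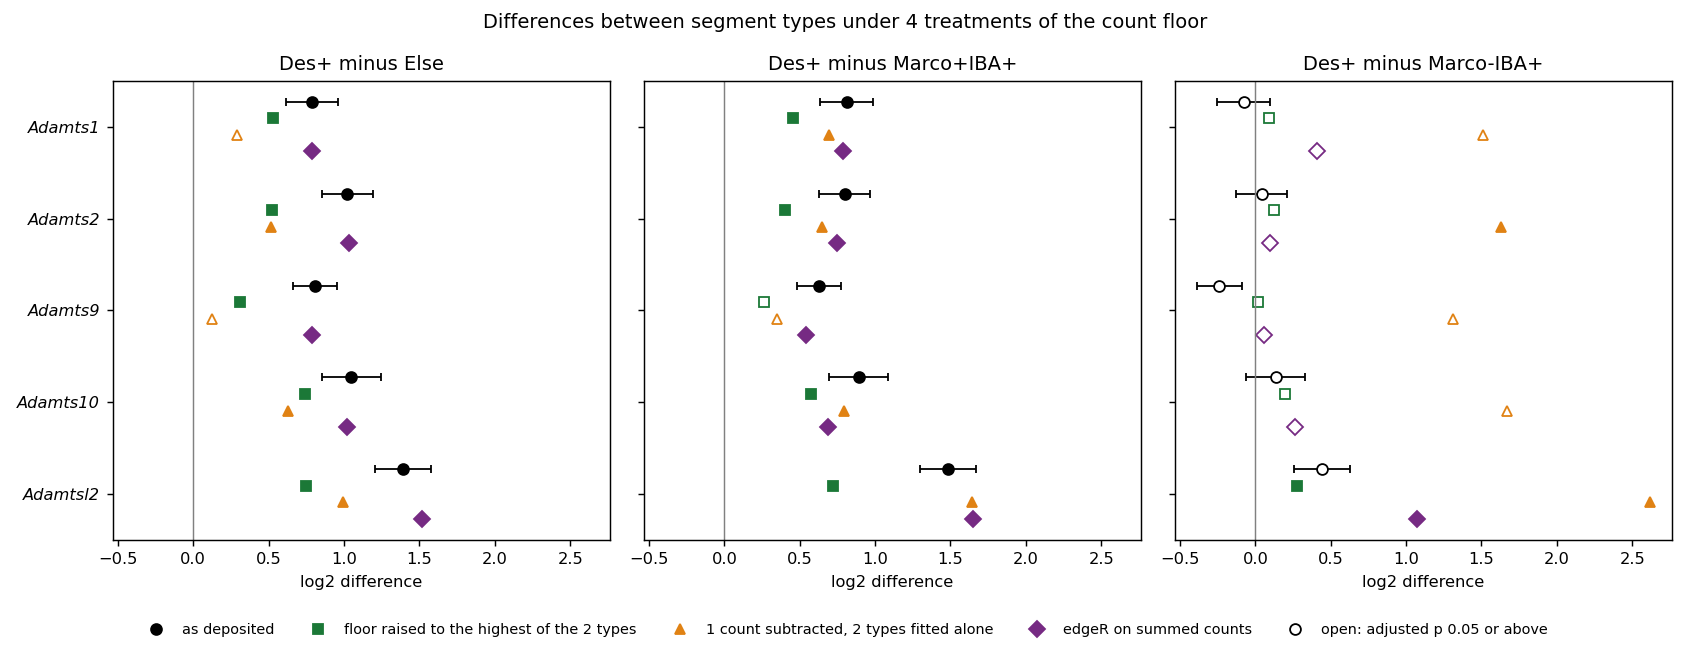
Points give the log2 difference of Des+ minus Else, Marco+IBA+ or Marco-IBA+ segments for each gene under 4 treatments of the count floor, with the standard error for the values as deposited; filled points have an adjusted p below 0.05. The differences from Else and from Marco+IBA+ lie to the right of 0 in every setting drawn, while those from Marco-IBA+ move from near 0 to between 1.31 and 2.62 when 1 count is subtracted.

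No difference between Des+ and Marco-IBA+ segments was called by limma for the 5 members, beside 47.0% of all genes called and 18.3% called higher in Des+. Mean Marco-IBA+ values for livers 1 to 4 were 12.6, 13.0, 9.62 and 15.4 for *Adamts1*. The liver 1 value weighs 1 MarcoHi segment, at 17.4, equally with the mean of 5 MarcoLo segments, at 7.88. Both Marco-IBA+ segments of liver 2 held each of the 5 genes at 1 count, worth a Q3 value of 13.0. The log2 differences were -0.08 for *Adamts1*, 0.04 for *Adamts2*, -0.24 for *Adamts9*, 0.14 for *Adamts10* and 0.44 for *Adamtsl2*, with standard errors from 0.15 to 0.20. *Adamtsl2* alone had an unadjusted p under 0.05 (p = 0.0259 by limma, adjusted p = 0.054), and edgeR and DESeq2 each called 1 member, *Adamtsl2* (log2 differences of 1.07 and 1.01). Without liver 2, limma called it as well (0.64, adjusted p = 0.0203). After re-centring of segments on their median gene, *Adamts9* was called lower in Des+ (-0.39, adjusted p = 0.0313). Subtracting 1 count, which takes values at 1 count to 0, moved the 5 differences to between 1.31 and 2.62. The median of the 607 genes also went from -0.12 to 0.88, with 307 genes called higher in Des+ beside the 5 members.

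Marco+IBA+ and Else segments were not told apart for any member by limma, at 0 of 5 called beside 40.2% of all genes called and 19.4% called higher in Marco+IBA+, with 0 of 5 at an unadjusted p under 0.05. The log2 differences ranged from -0.09 for *Adamtsl2* to 0.22 for *Adamts2*. On summed counts, edgeR called 3 members higher in Marco+IBA+, *Adamts2* by 0.29, *Adamts9* by 0.24 and *Adamts10* by 0.33, beside 196 of 607 genes called higher and 389 in either direction, and DESeq2 called *Adamts10* alone (0.29), beside 366 genes in either direction. With 1 count subtracted and the 2 types fitted alone, *Adamts1* and *Adamtsl2* were called lower in Marco+IBA+, with log2 differences of -0.40 and -0.65, beside a median of -0.28 over all genes, of which 442 were called. With 1 count subtracted in the fit of all 4 types, 0 of 5 were called. In order of level, Des+ stood above Else and Marco+IBA+, those 2 did not differ beyond their spread by limma, and the place of Marco-IBA+ was not resolved.

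Segments of MarcoHi and MarcoLo ROIs were compared within livers, the question of the study being how stellate cells differ beside areas of high MARCO signal. In Des+ segments no member was called by limma, beside 4.45% of all genes, while 2 of 5 members and 110 of 607 genes had an unadjusted p under 0.05. edgeR and DESeq2 called 0 members too. *Adamts1* had mean MarcoHi values of 18.4, 18.1, 14.5 and 8.28 in livers 1 to 4 and MarcoLo values of 11.5, 9.27, 10.3 and 6.83. The MarcoHi value was higher in 4 of 4 livers, by 0.56 ± 0.21 on the log2 scale (SE, p = 0.0109, adjusted p = 0.122 by limma). Over 18 alternatives its adjusted p ranged from 0.106 to 1 and the direction did not change.

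*Adamtsl2* had MarcoHi values of 26.6, 14.8, 13.6 and 14.5 and MarcoLo values of 15.1, 8.69, 14.3 and 9.31. It was higher in MarcoHi in 3 of 4 livers, liver 3 being the exception, by 0.50 ± 0.21 (SE, p = 0.0218, adjusted p = 0.177 by limma). The floor moved in the same direction as these values. The median worth of 1 count was 4.35 in the 25 Des+ segments of MarcoHi ROIs and 3.08 in the 16 of MarcoLo ROIs, with a median 20.4% and 9.39% of genes at 1 count, and the part of this in the differences was not tested.

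The other members had no common direction. The log2 difference of *Adamts2*, MarcoHi minus MarcoLo, was 0.60 and 0.80 in livers 1 and 2 and -0.74 and -0.59 in livers 3 and 4. *Adamts9* and *Adamts10* were each higher in 2 of 4 livers, with mean log2 differences of -0.14 and -0.03 (limma adjusted p = 0.799 and 0.966). *Adamts9* was at 1 count in 48.0% of the MarcoHi and 18.8% of the MarcoLo Des+ segments.

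**Figure D4:**
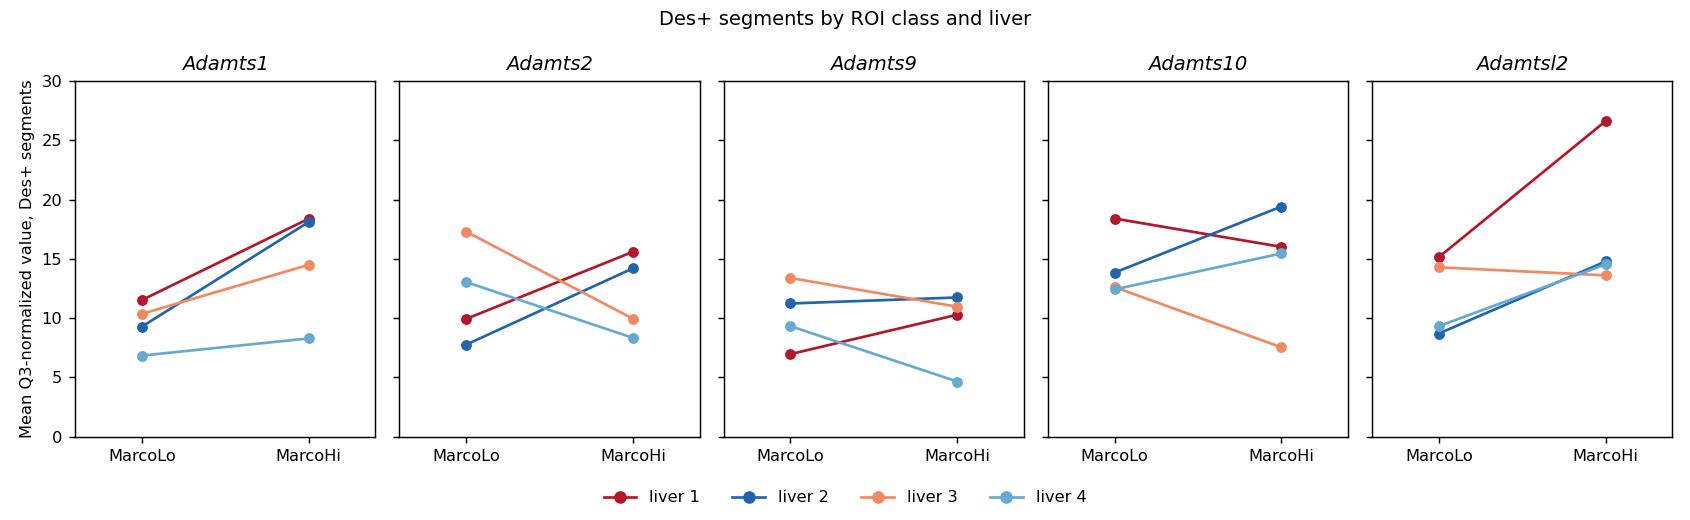
Lines join the mean Q3 values of Des+ segments in MarcoLo and MarcoHi ROIs of the same liver, 1 colour per liver. All 4 lines rise for *Adamts1*, 3 of 4 for *Adamtsl2*, and 2 of 4 for each of the other 3 genes.

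In Marco+IBA+ segments 0 of 5 members were called between ROI classes, beside 0.494% of all genes, and the mean log2 differences ran from -0.10 for *Adamts2* to 0.25 for *Adamts1*. In Else segments, with the most counts, 0 of 5 were called beside 5.11% of all genes, and the differences ran from -0.07 for *Adamts1* to 0.01 for *Adamtsl2*, with standard errors from 0.04 to 0.07. In both types 0 of 5 members had an unadjusted p under 0.05 by limma, and edgeR and DESeq2 called none. The ROI class change of Des+ segments was also compared between the livers labelled treated CCl4 and control. No member was called, beside 0% of all genes, and 0 of 5 had an unadjusted p under 0.05. The value furthest from 0 was that of *Adamts10*, -0.81 ± 0.41 (SE, p = 0.0567, adjusted p = 0.677 by limma).

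Between the pairs of livers by label, 0 of 5 members were called in Des+ segments, beside 0% of all genes. The liver means of *Adamts2* did not overlap, at 12.8 and 13.6 in livers labelled treated CCl4 and 10.7 and 11 in those labelled control, nor did those of *Adamtsl2*, at 13.9 and 20.9 against 11.7 and 11.9. Means without overlap were thus seen for 2 of 5 members, both higher in the livers labelled treated CCl4, beside 36.7% of all genes in either direction and 19.9% in that direction. The log2 difference of *Adamtsl2* was 0.50 ± 0.23 (SE, p = 0.0527, adjusted p = 0.813 by limma). In Marco+IBA+ segments 0 of 5 were called, beside 0.659% of all genes, and the liver means of each member overlapped. In Des+ and Marco+IBA+ segments alike 0 of 5 had an unadjusted p under 0.05, and edgeR and DESeq2 called none. Marco-IBA+ segments, mostly at 1 count, were not tested between ROI classes or labels. Their means were lower in the livers labelled treated CCl4 without overlap for *Adamts1* (9.62 and 12.6 against 13.0 and 15.4), *Adamts2* and *Adamts10*. Those of *Adamts9* and *Adamtsl2* overlapped. The share of all genes without overlap was not computed for Marco+IBA+ and Marco-IBA+ segments.

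In Else segments, where counts were highest, the livers labelled treated CCl4 had higher means than the control livers for all 5 members without overlap, beside 50.1% of all genes in that direction and 65.7% in either. For *Adamts2* the gap was narrow, at 5.50 and 5.51 against 5.03 and 5.47. Its log2 difference was 0.06 (adjusted p = 0.661 by limma) and changed sign in 4 of 19 alternatives. *Adamts9* had 5.04 and 6.54 against 4.22 and 4.66, and its log2 difference was 0.31 ± 0.12 (SE, adjusted p = 0.212 by limma). *Adamtsl2* differed by 0.21 ± 0.09 (SE, adjusted p = 0.212), and these 2 genes had an unadjusted p under 0.05. The median difference over all 607 genes was 0.11, and that over the members was 0.18. None was called, beside 0% of all genes, and edgeR and DESeq2 called none. Without liver 1, which leaves 1 liver labelled treated CCl4 that is assumed to vary like the control livers, *Adamts9* was called (0.47, adjusted p = 0.035), as were 94 of 607 genes. Over the 49 single segments with liver as a random block, it was called as well (0.30, adjusted p = 0.0485), as were 68 genes. Those segments come from the same 4 livers, so that p may be too small.

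The members varied little together from segment to segment. After liver means were removed, the 10 pairs of members had Pearson correlations of log2 values from -0.15 to 0.26 over the 41 Des+ segments (median 0.04), beside a median of 0.02 over all pairs of genes. Over the 49 Else segments they ran from -0.12 to 0.54 (median 0.24, beside 0.07 over all pairs), with the highest value for *Adamts2* and *Adamts10*. Segments share ROIs and livers, so these are descriptions without a test. In Des+ segments the coefficient of variation was 69.1% for *Adamtsl2* against a counting error of 54.1%, and 69.9% for *Adamts2* against 62.3%. For *Adamts1*, *Adamts9* and *Adamts10* it was below the counting error, at 59.2%, 57.2% and 54.2% against 59.7%, 67.4% and 56.3%. No recovered count was below 1, which limits the spread that these values can show. The part of this floor in the comparison was not tested. In Else segments *Adamts9* varied by 21.4% against a counting error of 12.4%, and the other members by 14.8% to 17.3% against 11.1% to 12.8%.

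Across the 16 means of liver and segment type, the genes most alike in pattern by Pearson correlation were *Ednra*, *Ccn2* and *Kcnj8* for *Adamts1* (0.93, 0.89 and 0.89). For *Adamts9* they were *Anxa1*, *Mustn1* and *Lrrc32* (0.93, 0.93 and 0.92). For *Adamts2* they were *Ehd2*, *Tmem47* and *Ggt5* (0.96, 0.94 and 0.93). *Angptl2*, *Fhl1* and *Lama1* came first for *Adamts10* (0.93, 0.93 and 0.91), and *Ntn1*, *Gdf10* and *Gucy1a1* for *Adamtsl2* (0.96, 0.96 and 0.96). No member was among the 3 genes most like another. The members themselves correlated with the log2 floor of the same means at 0.66 (*Adamtsl2*) to 0.83 (*Adamts2*), and the part of the floor in the likeness was not tested.

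Of 59 listed substrates, inhibitors, maturation enzymes and matrix partners of the family, 26 were in the table. In Des+ against Else segments 23 of these were higher, 2 lower and 1, *Mmp14*, was not called (0.36, adjusted p = 0.153 by limma). Their median log2 difference was 1.30, beside 0.06 over all genes, of which 37.2% were called higher. The fibrillar collagen genes whose products *Adamts2* helps to mature were higher by 2.40 (*Col1a1*), 1.96 (*Col1a2*) and 3.13 (*Col3a1*). The genes of the small proteoglycans decorin and biglycan, *Dcn* and *Bgn*, were higher by 3.36 and 2.99. *Fbn1*, which encodes fibrillin, was higher by 0.89 and *Ltbp1*, which encodes a latent TGF-β binding protein, by 0.54, both below the median of the 26 genes. *Vegfc*, a growth factor gene of the lymphatic endothelium, was higher by 0.57. *Fbn1*, *Ltbp1* and *Vegfc* each had a median of 2 counts in Des+ segments. All 26 genes were compared with the values as deposited only, here and against Marco+IBA+ segments. The part of the floor in their differences was not tested. The 2 lower genes were *Fn1*, the fibronectin gene, at -1.12, and *Lrp1*, which encodes an endocytic receptor, at -0.63.

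In Des+ against Marco+IBA+ segments 22 of the 26 were higher, 1 (*Lrp1*, -0.72) was lower and 3 were not called. The median was 1.00, beside 0.08 over all genes, of which 34.4% were called higher. The 3 were *Fn1* (0.31), *Timp2*, which encodes a metalloprotease inhibitor (-0.20), and *Mmp14*, which encodes a membrane metalloprotease (-0.48). The comparisons with Else and with Marco+IBA+ share their Des+ segments.

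**Figure D5:**
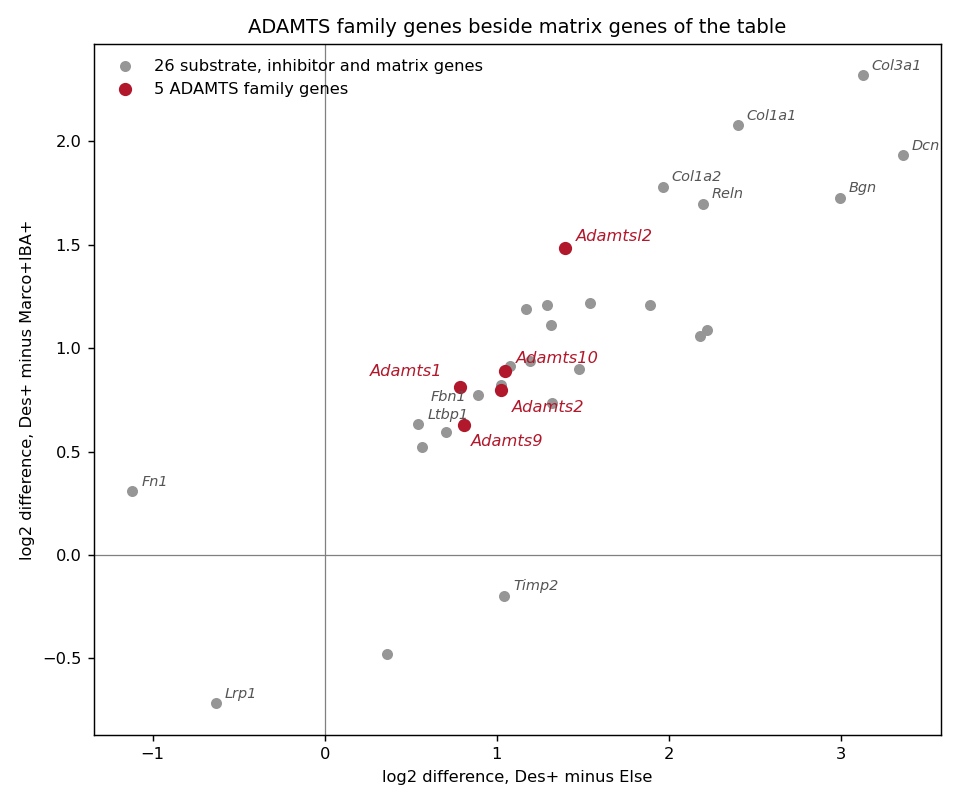
Each point is 1 gene, with its log2 difference of Des+ minus Else segments on the horizontal axis and of Des+ minus Marco+IBA+ segments on the vertical axis, for the 5 members (red) and the 26 matrix genes of the table (grey). The members lie between 0.79 and 1.39 horizontally and 0.63 and 1.48 vertically, below *Col1a1*, *Col3a1*, *Dcn* and *Bgn* on both axes.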

How the data were processed

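Per the methods, barcodes of each segment were sequenced, collapsed by molecular identifier into counts, filtered and scaled to the upper quartile (Q3) by the authors with the GeoMx pipeline and GeoMxTools. The submitters' processing notes name bcl2fastq 2.20.0.422 and mm10. The deposited table gives this scaled signal for 607 genes in 159 segments. Dividing by the worth of 1 count turned 96513 of 96513 values into whole numbers (relative tolerance 1e-06), the recovered counts. The counting error given for the members was computed from these counts and covers counting alone, while their spread over segments can hold more. Negative probes and raw reads were not analysed here.

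Groups came from sample titles and descriptions, with the liver as the replicate, and p-values rest only on these 4 livers. With liver as a block, they measure how differences between segment types or ROI classes varied from liver to liver. For segment types that spread was pooled over all 4 types, the Marco-IBA+ means near the floor included. Between labels it is the spread of liver means within a label. Segment values were averaged per liver, ROI class and segment type. limma 3.58.1 (R 4.3.3) was fitted to log2(mean + 1) with liver as a block, which pairs segments of the same animal, and the threshold was an adjusted p of 0.05 (Benjamini-Hochberg over 607 genes). Comparisons of ROI classes or labels had 2 residual degrees of freedom, so their spread was largely borrowed across genes. As alternatives, summed recovered counts were fitted with edgeR 4.0.16 and DESeq2 1.42.0. The fits were also run on simulated counts with known changes. Those counts were drawn from a common profile without liver effects, so they cannot show error rates under the spread between livers. For 1 ROI of liver 4 the library name lacks a class, and MarcoLo was read from its title. The members, the lists and the rule for named genes were chosen with earlier results of these data known. Named genes were all members, the 3 genes most alike to each, and the 4 highest and 4 lowest called partner genes in Des+ against Else segments with *Col1a1*, *Col1a2*, *Col3a1* and *Fbn1*. Other partner genes are named where they made up a count of 5 or fewer, after their values were seen.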

Additional observations from a re-analysis of the deposited data

Results flagged for a closer look

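The 4 liver means of each member in each segment type were screened for a liver far from the others, 20 groups in all, of which chance alone flags about 1. *Adamts2* in Else segments had its lowest liver mean, liver 4, at 5.03, with the other 3 livers between 5.47 and 5.51. *Adamts2* in Marco-IBA+ segments had its lowest liver mean, liver 1, at 8.30, with the other 3 livers between 12.5 and 13.3. In the Marco-IBA+ segments of liver 1 the median worth of 1 count was 4.76, against 8.69 to 13.0 in the other livers.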

How the results depend on the processing

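For Des+ against Else and against Marco+IBA+ segments, the 5 members kept their direction in each of 24 alternatives, and the count called was 5 in 20 and 19 of them. It was 1 and 1 with 1 count subtracted, 3 and 3 with a common floor over all 4 types, and 3 against Else with 1 count subtracted and the types fitted alone, and 4 in the remaining alternatives. Against Marco-IBA+ segments the count of 0 became 5 with 1 count subtracted, where *Adamts1* (1.51) and *Adamts9* (1.31) turned from negative to called positive differences, and 2 with that setting in a fit of the 2 types alone. It became 1 with a common floor over all types or the 2 compared, total count scaling, re-centring on the median, edgeR, DESeq2, single segments, the ROI of unnamed class left out or the liver 2 mean of Marco-IBA+ segments left out. That 1 was *Adamtsl2*, except under re-centring, where *Adamts9* was lower in Des+ (-0.39). For Marco+IBA+ against Else the count of 0 became 3 by edgeR, 1 by DESeq2 and 2 with 1 count subtracted and the types fitted alone. Between labels in Else segments it became 1 over single segments. Leaving out 1 liver gave 5 to 5 against Else and Marco+IBA+, 0 to 1 against Marco-IBA+ (1 without liver 2) and 0 to 1 between labels in Else segments (1 without liver 1). For the other 6 comparisons the count stayed 0 in each alternative. The cause of these changes was not tested, apart from the floor settings, which act by construction on values near 1 count.

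Without the replicate block, which pairs segments of the same liver, the members called against Else numbered 5, with adjusted p of 0.000694 for *Adamts1* and 1.24e-06 for *Adamtsl2*, and no call of a member changed in the 8 comparisons with such a block (those between segment types, between ROI classes and of the ROI class change). Among single members, 108 values changed sign with neither value called. The settings named for the types compared alone, the common floor of 2 types and the Marco-IBA+ mean of liver 2 were chosen after seeing the data. Depth limits the Marco-IBA+ values, with a median total of 1639.5 counts a segment.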
